A study of Mus musculus with 4 samples.

Results

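Glycolysis breaks glucose down to pyruvate in the cytosol, and lactate dehydrogenase can turn that pyruvate into lactate. The genes described here are 10 parts of that route: the glucose transporter gene Slc2a1, the enzyme genes Hk2, Gpi1, Pfkp and Aldoa of the energy-consuming steps, the enzyme genes Gapdh, Pgk1, Eno1 and Pkm of the energy-yielding steps, and the lactate dehydrogenase gene Ldha. They were taken by name, and each was read from the probe set that the array annotation assigns to it, using the brightest one where there were several. Of the 10 genes, 8 could be measured in this way, within a table of 18194 genes. Gpi1, the gene of glucose-phosphate isomerase, and Eno1, the gene of enolase, have no probe set in the annotation used here and were not analysed. Gapdh is carried only by probe sets that are shared with related loci, and its main probe set carries 5 symbols, so its values belong to Gapdh and those loci together.

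Epidermis is known to feed largely on glucose, which its keratinocytes take up mainly through the transporter encoded by Slc2a1. Dividing keratinocytes and activated immune cells are both known for making more of the transporter and of the glycolytic enzymes, and several of these genes are textbook targets of the hypoxia-inducible factors. Gapdh and Actb are often used as reference genes in expression studies, which gives their levels in inflamed skin a practical interest.

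The skin came from female wild type BALB/c mice. All of them, vehicle group included, had been sensitised on the ear with ovalbumin, an egg-white protein, together with MC903, and had then received ovalbumin by mouth. MC903, also called calcipotriol, belongs to the vitamin D analogues and causes inflammation when painted on mouse skin. After the first oral challenge the mice were given either MC903 or its vehicle, ethanol, on the skin and were challenged once more, so the vehicle group had met MC903 earlier and the comparison is of the later applications. RNA of the treated skin was hybridised to 2 arrays per group, with 200 ng of RNA each. Age, dose and the number of animals behind an array are not given in the sources used here, so the p-values rest on an array-to-array spread that may be purely technical. In whole skin, more cells of a type and more RNA per cell cannot be told apart.

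All 4 arrays were scaled to the same trimmed mean, and their median probe-set signals were 90.2 to 109. Keratinocyte markers were bright on every array, 7 of 7 measured, with summed signals of 187481 and 177974 with vehicle, against 216581 and 214589 with MC903. Of the 7, 5 were higher in both MC903 arrays and 1 lower, against 21.6% and 28.2% of all genes. Krt10 lay near the array maximum, at 45067 of 46859 in MC903 replicate 2, which limits what the sum can show. Control probe sets along the Gapdh transcript gave ratios of the 3′ to the 5′ signal of 0.638 to 0.671, and those along Actb gave 1.24 to 1.27 over all 4 arrays. Both ratios, a guide to RNA integrity, lay in narrow ranges, with the MC903 arrays above the vehicle arrays for Gapdh and below them for Actb. Skeletal muscle RNA differed between arrays within a group, the summed signal of 15 muscle markers being 93051 and 57661 (vehicle) against 19827 and 70270 (MC903).

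The letters before the start sites of these genes are shown for Ldha, Pgk1 and Hk2, because these 3 held the most matches to the core of the hypoxia response element, ACGTG, and were among the genes with both MC903 signals above both vehicle signals. The sequences are RefSeq's for build GRCm38.p6, each 250 bases ending at the base before an annotated start, written 5′ to 3′ on the gene's strand. Capitals mark ACGTG on either strand, which reads CACGT on the printed strand when the match is on the other, and CACGTG where matches on both strands overlap.
Ldha, plus strand, chr7:46845554-46845803: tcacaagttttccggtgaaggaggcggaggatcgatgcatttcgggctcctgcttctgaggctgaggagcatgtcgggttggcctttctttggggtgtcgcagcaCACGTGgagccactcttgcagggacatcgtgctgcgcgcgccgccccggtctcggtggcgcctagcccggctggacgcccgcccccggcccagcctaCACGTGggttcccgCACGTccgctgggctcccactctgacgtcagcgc
Pgk1, plus strand, chrX:106186850-106187099: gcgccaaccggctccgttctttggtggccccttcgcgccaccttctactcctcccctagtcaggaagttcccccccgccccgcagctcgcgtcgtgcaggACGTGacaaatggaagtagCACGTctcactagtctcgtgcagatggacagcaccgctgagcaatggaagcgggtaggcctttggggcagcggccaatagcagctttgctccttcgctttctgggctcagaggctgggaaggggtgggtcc
Hk2, minus strand, chr6:82774455-82774704: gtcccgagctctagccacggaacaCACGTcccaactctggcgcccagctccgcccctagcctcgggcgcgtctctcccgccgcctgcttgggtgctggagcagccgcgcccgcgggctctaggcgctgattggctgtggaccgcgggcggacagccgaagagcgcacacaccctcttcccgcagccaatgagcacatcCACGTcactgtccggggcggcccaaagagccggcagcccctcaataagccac

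The window of Ldha shown held 5 matches to ACGTG counted over both strands, 2 pairs of which form CACGTG, while those of Pgk1 and Hk2 held 2 each. The other window of Ldha held 0. All 10 genes had at least 1 window in the RefSeq table, 16 windows in all. ACGTG was found for 6 of the 10 (Aldoa, Hk2, Ldha, Pgk1, Pkm and Slc2a1), against 18.5% of 27025 genes with such windows, and in 7 of the 16 windows against 16.6% of 32851. CACGTG, the E-box, was found for Ldha alone among the 10, and for 6.86% of all genes. The GC box GGGCGG was found for 9 of the 10, Gapdh being the one without it, against 35.4% of all genes, and TATAAA for 0 of the 10 against 14.3%. These are matches of letters within fixed windows. The Aldoa windows with a match overlap and hold the same site. No allowance was made for base composition or for the number of windows per gene. Among the 8 measured genes, Gapdh and Pfkp had no ACGTG there.

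Transcripts of the measured genes stood higher in MC903 than in vehicle skin in nearly every case, by modest amounts. Of the 8 genes, 7 had both MC903 signals above both vehicle signals, against 21.6% of all genes (6 of the 8 after quantile normalization, which turned Aldoa to -0.05), and 0 had both below, against 28.2% of all genes. Slc2a1 was the exception, its groups overlapping narrowly. Among the 4586 genes at least as bright as the dimmest of the 8, 28.0% were higher in this sense and 29.5% lower. The median difference of the 8 was 0.50 on the log2(signal + 16) scale, with a range of 0.18 to 0.68, beside a median of -0.04 over all genes. Taken singly, the MC903 arrays had medians of 0.58 (replicate 1) and 0.30 (replicate 2) over the 8 genes, so that the median moved to 0.30 without MC903 replicate 1.

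No single gene of the 8 passed the test over all genes. limma with a constant prior variance called 0 of the 18194 genes, or 0% of them, at an adjusted p below 0.05. Without adjustment, 6.82% of all genes had a p below 0.05 and were higher with MC903 and 8.39% were lower, and of the 8 genes Ldha and Pkm were among the former. With a prior variance that follows the signal limma called 98 genes higher and 70 lower, 0.923% of all genes, and again 0 of the 8. With 2 arrays a side, the lowest two-sided p that exact permutation of the labels can give is 0.33.

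**Figure D1:**
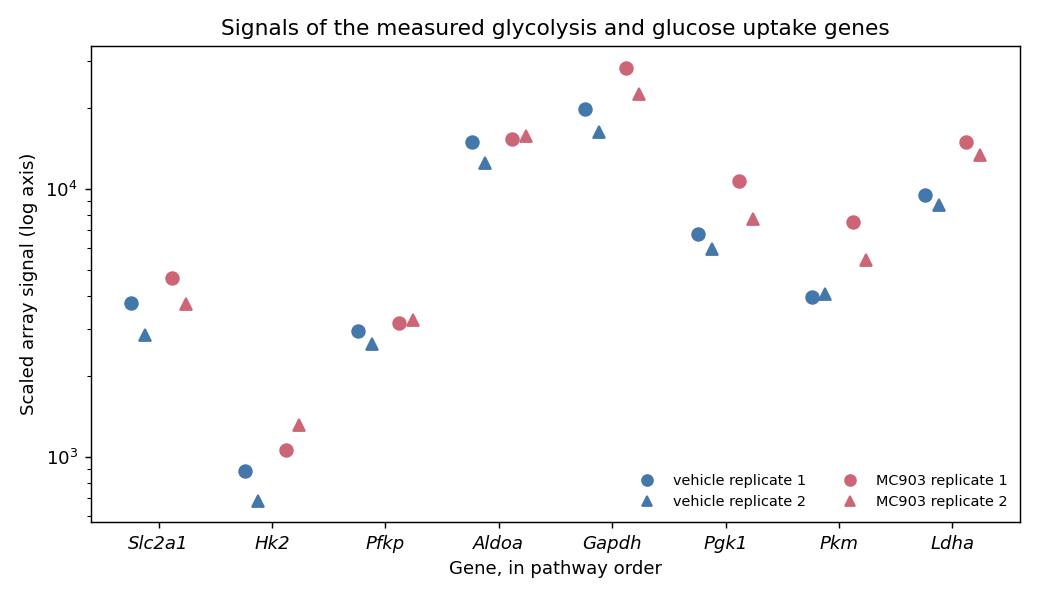
Scaled array signals (log axis) of the 8 measured genes in pathway order, 1 point per array, with vehicle in blue, MC903 in red, circles for replicate 1 and triangles for replicate 2. Both red points lie above both blue points for 7 genes, and for Slc2a1 the lower MC903 signal (3736) lies just under the higher vehicle signal (3758).

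Slc2a1 encodes GLUT1, the carrier that lets glucose into cells along its gradient. It stood at 3758 and 2842 on the vehicle arrays, with 4662 and 3736 on the MC903 arrays. The vehicle arrays were farther apart than the means of the groups, and the difference of 0.35 ± 0.23 (SE, n = 2 per group) was not called (limma, adjusted p = 0.52). Its 2 other probe sets did separate the groups. One of them stood at 2625 and 2078 with vehicle, against 4057 and 2742 with MC903, the other at 1670 and 1350 (vehicle) against 2898 and 1827 (MC903), with differences of 0.51 and 0.61. On all 3 probe sets MC903 replicate 1 was the highest array and vehicle replicate 2 the lowest, and the difference of the main probe set was 0.15 without vehicle replicate 2, 0.19 without MC903 replicate 1 and 0.55 without vehicle replicate 1.

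Hk2 encodes hexokinase II, the inducible enzyme that traps glucose in the cell by phosphorylating it. Its signals were 886 and 686 on the vehicle arrays, with 1062 and 1311 on the MC903 arrays, a difference of 0.59 ± 0.22 (SE, n = 2 per group; limma, adjusted p = 0.33). Hk2 was the dimmest of the 8 genes and the one whose MC903 replicate 2 stood clearly above replicate 1. Hk1, the gene of the constitutive hexokinase, named after its values were seen, differed by 0.19 ± 0.15, with signals of 1389 and 1405 with vehicle, against 1537 and 1660 with MC903.

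Pfkp encodes the platelet form of phosphofructokinase, which catalyses the committed step of the pathway. It stood at 2945 and 2642 (vehicle) against 3164 and 3243 (MC903). The MC903 signals were almost equal and only a little above the higher vehicle signal, and the difference was 0.20 ± 0.16 (SE, n = 2 per group; limma, adjusted p = 0.60). It was 0.12 without vehicle replicate 2 and 0.084 with its probe sets averaged. Its 2 other, dimmer probe sets overlapped between the groups, with differences of 0.20 and -0.15, the latter being the single negative value among the 12 other probe sets of the 8 genes. Of these 12, 7 separated the groups, all with MC903 higher.

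Aldoa encodes aldolase A, which splits the sugar into smaller triose phosphates. Its signals were 14986 and 12549 on the vehicle arrays, with 15391 and 15748 on the MC903 arrays. The higher vehicle array nearly reached the MC903 arrays, and the difference of 0.18 ± 0.17 (SE, n = 2 per group; limma, adjusted p = 0.65) was the smallest of the 8. After quantile normalization it was -0.05, and it was 0.055 without vehicle replicate 2 and 0.31 without vehicle replicate 1. The probe set of Aldoa has a suffix (x) that marks possible cross-hybridisation, as have its 4 other probe sets, which gave differences of 0.13 to 0.27 with 3 of the 4 separating the groups.

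Gapdh encodes the dehydrogenase that starts the energy-yielding steps. Its shared probe set stood at 19859 and 16291 with vehicle, against 28404 and 22540 with MC903, a difference of 0.49 ± 0.21 (SE, n = 2 per group; limma, adjusted p = 0.38). Both MC903 arrays were above both vehicle arrays. The difference was 0.27 after quantile normalization and 0.33 without MC903 replicate 1. The signal in MC903 replicate 1 was 56.6% of the highest on that array, the closest approach to the array maximum among the 8 genes, and without Gapdh the closest was 33.6%. The 3 array control probe sets for Gapdh, left out of the table, gave differences of 0.49 (5′ end), 0.56 (middle) and 0.54 (3′ end). Those for Actb, the beta-actin gene, gave 0.25, 0.30 and 0.22 in the same order. For both reference genes every control probe set was brighter on both MC903 arrays than on both vehicle arrays.

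Pgk1 encodes phosphoglycerate kinase, the first ATP-forming step. It stood at 6810 and 5956 (vehicle) against 10742 and 7745 (MC903), and the difference was 0.52 ± 0.23 (SE, n = 2 per group; limma, adjusted p = 0.38). MC903 replicate 1 stood well apart from the other arrays. The difference was 0.28 without that array and 0.75 without MC903 replicate 2. The next brightest probe set of Pgk1 behaved alike, at 5201 and 4756 on the vehicle arrays, with 8570 and 6094 on the MC903 arrays, whereas the dimmest overlapped between the groups. Both of these carry the suffix (x) that marks possible cross-hybridisation.

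Pkm encodes pyruvate kinase of muscle and of proliferating cells, in forms that 1 probe set does not separate here. Its signals were 3947 and 4049 with vehicle, against 7524 and 5452 with MC903, giving the largest difference of the 8 genes, 0.68 ± 0.22 (SE, n = 2 per group; limma, adjusted p = 0.29), or 1.60-fold. The vehicle arrays were nearly equal and the MC903 arrays were not, and the difference was 0.45 without MC903 replicate 1 and 0.91 without MC903 replicate 2. Ldha encodes the lactate dehydrogenase chain that favours the making of lactate. It stood at 9483 and 8708 (vehicle) against 15008 and 13350 (MC903). On each side the arrays lay closer to each other than to the other group, with a difference of 0.64 ± 0.17 (SE, n = 2 per group; limma, adjusted p = 0.25, and 0.10 with a prior that follows the signal), or 1.56-fold. Over all settings tried its adjusted p ran from 0.095 to 0.66. Ldhb, also named after its values were seen, is the gene of the chain that favours the return of lactate to pyruvate. It stood at 2196 and 2083 on the vehicle arrays, with 1669 and 2395 on the MC903 arrays, so that its groups overlapped.

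**Figure D2:**
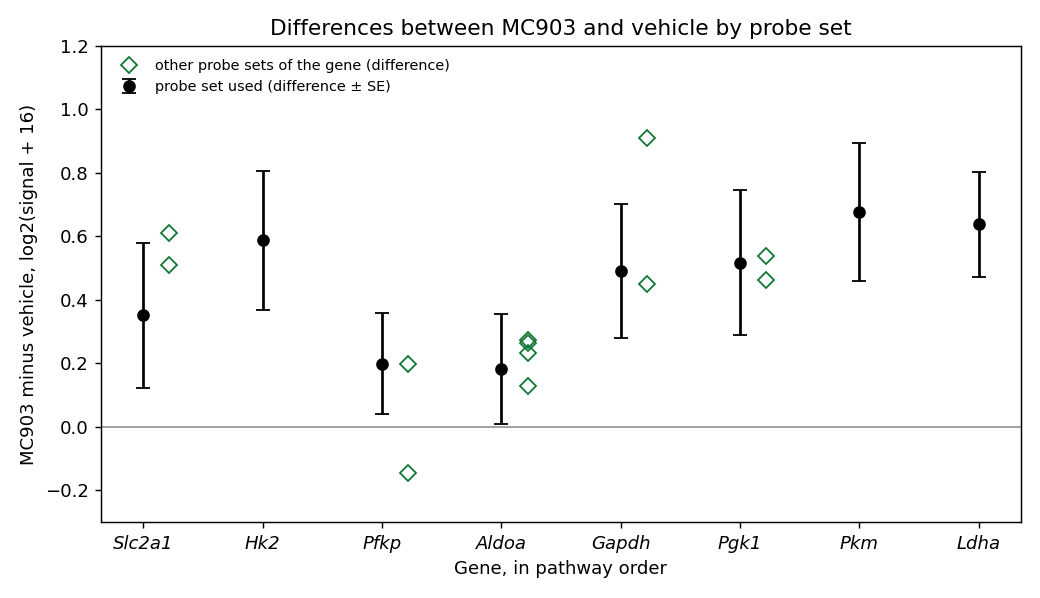
Differences between MC903 and vehicle on the log2(signal + 16) scale for the 8 measured genes. Black points with bars are the probe set used and its SE, and open green diamonds are the other 12 probe sets of the same genes, of which 11 lie above 0 and 1, of Pfkp, lies below.

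The order of the arrays within a group was more uniform over the 8 genes for vehicle than for MC903. Vehicle replicate 1 was above vehicle replicate 2 for 7 of them, Pkm being the exception, whereas 50.5% of all genes showed that order. MC903 replicate 1 was above MC903 replicate 2 for 5 of them, Hk2, Pfkp and Aldoa being the others, against 48.1% of all genes. Averaged over the 8, the 4 arrays had centred values of -0.12 and -0.34 (vehicle) against 0.31 and 0.14 (MC903), relative to each gene's own mean log2 signal. The genes nearest to this mean pattern, by root mean square distance over 4 arrays, were Nfkbie, which encodes an inhibitor of NF-kB (0.011), the tropomyosin gene Tpm3 (0.015) and Desi2 (0.020). The 8 genes themselves lay at 0.064 to 0.19 from it, and with only 4 arrays 478 of 11788 genes with a mean signal above 100 were as near as the middle of the 8.

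Marker lists of other cells differed between the arrays as well. For comparison, 21.6% of all genes were higher in both MC903 arrays. Macrophage markers, all 7 higher in both MC903 arrays, summed to 10897 and 9640 with vehicle, against 31405 and 14080 with MC903. Markers of dividing cells, all 5 measured being higher, summed to 4379 and 4451 (vehicle) against 11363 and 6103 (MC903). Activated keratinocyte genes, 6 of 6 higher, summed to 22642 and 24642 on the vehicle arrays, with 190522 and 94810 on the MC903 arrays. On all 3 lists MC903 replicate 1 was the highest array, as it was for Slc2a1, Gapdh, Pgk1, Pkm and Ldha. For Pkm the order of the 4 arrays was that of the dividing cell, activated keratinocyte and T cell sums alike. Adipocyte markers (5 of 5 measured higher) summed to 13164 and 11644 with vehicle, against 17326 and 24344 with MC903. MC903 replicate 2 was the highest, as for Hk2, Pfkp and Aldoa. Neutrophil markers (3 of 5 higher) summed to 284 and 237 (vehicle) against 1354 and 449 (MC903), and T cell markers (4 of 5 higher) to 623 and 693 on the vehicle arrays, with 1261 and 1168 on the MC903 arrays. The part of these cells in the glycolytic signals was not tested.

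Skeletal muscle, a tissue rich in glycolytic enzymes, gave its lowest marker sum in MC903 replicate 1. Hair follicle markers summed to 5711 and 12005 with vehicle, against 1096 and 1141 with MC903. All 7 measured were lower in both MC903 arrays, against 28.2% of all genes. Endothelial markers, 2 of 5 higher and 1 lower, summed to 1574 and 1353 (vehicle) against 1842 and 1637 (MC903), and 3 erythrocyte markers to 248 and 308 on the vehicle arrays, with 260 and 201 on the MC903 arrays (1 lower). Of all the markers measured, 1 (Camp, of neutrophils) had a mean signal no higher than the brightest of the bacterial TrpnX controls. The part of muscle, hair follicle and the other cells of these lists in the glycolytic signals was not tested.

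**Figure D3:**
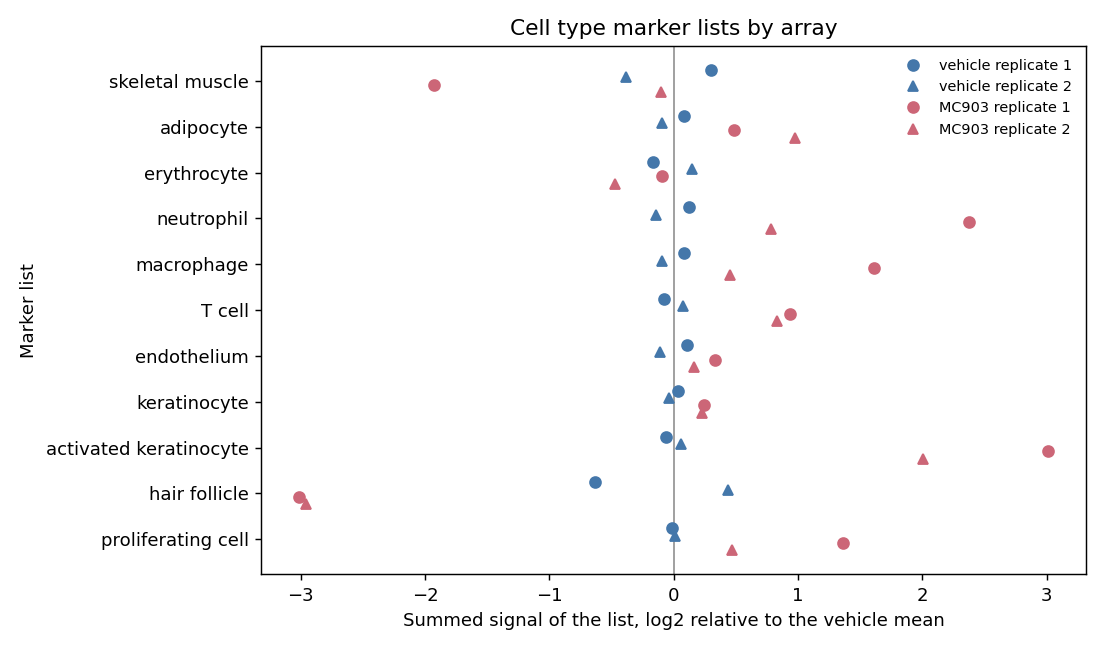
Summed signal of each cell type marker list on each array, as log2 relative to the mean of the vehicle arrays, with colours for the groups and symbols for the replicates. MC903 replicate 1 is highest for macrophage markers (31405) and for dividing cells (11363) and lowest for skeletal muscle (19827).

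The remaining glycolytic enzymes gave a more mixed list. Of 19 measured, 8 were higher in both MC903 arrays, 3 lower and 8 overlapping, with a median difference of 0.05. Among all genes, 21.6% were higher and 28.2% lower, and 6.82% and 8.39% were so with an unadjusted p below 0.05. With either prior limma called 0 of them, and without adjustment 2 higher and 1 lower had a p below 0.05. Pgam1, the phosphoglycerate mutase gene of most tissues, stood at 3679 and 3618 with vehicle, against 5931 and 5721 with MC903, a difference of 0.67 ± 0.15 (SE, n = 2 per group; limma, adjusted p = 0.22). Tpi1, the triose phosphate isomerase gene, picked here after its values were seen because it follows aldolase in the route, stood at 7018 and 6536 (vehicle) against 9743 and 8488 (MC903), a difference of 0.42 ± 0.17. Both were higher in each MC903 array. Aldoc, the brain form of aldolase, was the 1 lower gene with an unadjusted p below 0.05 and was likewise picked after its values were seen. It stood at 1478 and 1752 (vehicle) against 1024 and 1193 (MC903), a difference of -0.54 ± 0.19 (limma, adjusted p = 0.31). Of the 19 genes, 3 had a mean signal no higher than the brightest TrpnX control. Hk3, the hexokinase of myeloid cells, stood at 102 and 88.7 on the vehicle arrays, with 296 and 149 on the MC903 arrays. The order of its 4 arrays was that of the macrophage sums, and equally of the neutrophil, endothelial and keratinocyte sums.

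The enzyme forms of muscle and nerve showed other patterns. Pfkm, Pgam2 and Eno3, the muscle forms of phosphofructokinase, phosphoglycerate mutase and enolase, were picked after their values were seen. Eno3 stood at 3302 and 1563 with vehicle, against 943 and 2868 with MC903, Pfkm at 1929 and 1161 (vehicle) against 730 and 1224 (MC903), and Pgam2 at 1146 and 592 on the vehicle arrays, with 344 and 598 on the MC903 arrays. For all 3 the groups overlapped and the order of the 4 arrays was that of the summed muscle markers, whose part in these values was not tested. Eno2, the neuronal enolase gene, was lower in both MC903 arrays, at 178 and 158 with vehicle, against 94.3 and 128 with MC903 (-0.54 ± 0.21; limma, adjusted p = 0.34). Ldhd, which acts on D-lactate, differed by 0.54 ± 0.33.

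The genes that set the level of the sugar bisphosphate that activates phosphofructokinase were split. Pfkfb4 and Pfkfb3, bifunctional enzyme genes, stood at 594 and 377 (vehicle) against 1149 and 796 (MC903), and at 247 and 230 on the vehicle arrays, with 329 and 418 on the MC903 arrays. Pfkfb2, another member of that family, stood at 568 and 442 with vehicle, against 208 and 320 with MC903. The differences were 0.99 ± 0.32, 0.60 ± 0.19 and -0.91 ± 0.28 (SE, n = 2 per group), with adjusted p values from limma of 0.29, 0.29 and 0.27. Tigar, whose product breaks that bisphosphate down, differed by -0.28 ± 0.16. All 4 measured genes of this small list had groups that did not overlap, 2 higher and 2 lower, against 21.6% and 28.2% of all genes. With either prior limma called 0. Without adjustment 2 higher and 1 lower had a p below 0.05, against 6.82% and 8.39% of all genes.

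Transporters of hexoses and lactate also went both ways, 5 of 15 being higher, 3 lower and 7 overlapping, with a median of 0.09. The shares over all genes were 21.6% higher and 28.2% lower. limma with a constant prior called 0 of the transporters. Without adjustment 5 higher and 2 lower had a p below 0.05, against 6.82% and 8.39% of all genes. Slc2a3, which encodes the high-affinity glucose carrier GLUT3, stood at 192 and 218 (vehicle) against 615 and 343 (MC903), a difference of 1.11 ± 0.32 (limma, adjusted p = 0.27). Slc5a1, the sodium-coupled glucose transporter gene, stood at 992 and 1115 on the vehicle arrays, with 1963 and 2340 on the MC903 arrays (1.02 ± 0.18; limma, adjusted p = 0.19). Slc2a9, a urate and hexose carrier gene, differed by 0.93 ± 0.23. All 3 were higher in both MC903 arrays. Slc2a12, another hexose carrier gene, and Txnip of the same list were lower in both, and were named after their values were seen. Slc2a12 stood at 805 and 889 (vehicle) against 475 and 557 (MC903), a difference of -0.70 ± 0.17 (limma, adjusted p = 0.24). Txnip differed by -0.31 ± 0.16.

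Among the carriers that move lactate, Slc16a1 stood at 4033 and 3864 with vehicle, against 6886 and 6713 with MC903. This gene of the monocarboxylate transporter MCT1, outside the rule for names, is given because it was the 1 transporter that passed a test, that of limma with a prior that follows the signal (0.78 ± 0.10; adjusted p = 0.044). With a constant prior it was not called (adjusted p = 0.19), and the adjusted p with the other prior was 0.48 and 0.50 when vehicle replicate 1 or 2 was left out, and 0.051 when MC903 replicate 1 was. Slc16a7, the gene of the related MCT2, had the opposite sign, at 274 and 340 (vehicle) against 131 and 144 (MC903), a difference of -1.07 ± 0.19 (limma, adjusted p = 0.18). Slc16a3, a dimmer gene of the same family with a mean signal of 88.0, was named after its values were seen. It was higher in both MC903 arrays, at 58.5 and 38.3 (vehicle) against 165 and 89.9 (MC903), a difference of 1.12 ± 0.34 (limma, adjusted p = 0.28).

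**Figure D4:**
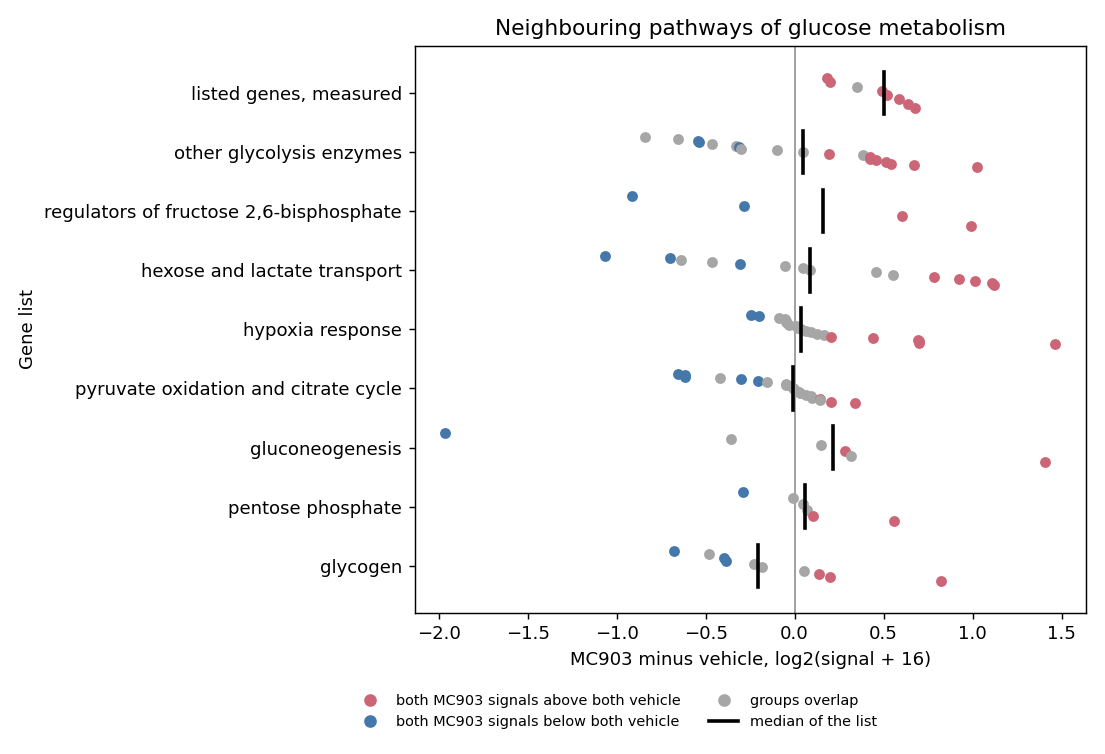
Differences between MC903 and vehicle on the log2(signal + 16) scale for every measured gene of the listed set and of 8 neighbouring lists, 1 point per gene, coloured by whether the groups overlapped, with a bar at each list's median. The median of the 8 listed genes is 0.50, and those of the other lists lie between -0.20 and 0.22.

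Genes of the hypoxia response had a median difference of 0.04 over 21 genes, 6 being higher, 2 lower and 13 overlapping. Of all genes, 21.6% were higher and 28.2% lower. limma with a constant prior called 0 of the 21. Without adjustment 4 higher and 0 lower had a p below 0.05, against 6.82% and 8.39% of all genes. The genes of the oxygen-regulated subunits of the hypoxia-inducible factors were among the 6. Hif1a, the gene of HIF-1 alpha, stood at 3869 and 3772 on the vehicle arrays, with 7559 and 5119 on the MC903 arrays (0.70 ± 0.24; limma, adjusted p = 0.31). Epas1, which encodes HIF-2 alpha, stood at 2708 and 2290 with vehicle, against 4045 and 4026 with MC903 (0.69 ± 0.17; limma, adjusted p = 0.23).

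Egln3, a prolyl hydroxylase gene that is itself a target of these factors, stood at 1656 and 1232 (vehicle) against 3867 and 4070 (MC903). It had the largest difference of the hypoxia list, 1.46 ± 0.21, and was called by limma with a prior that follows the signal (adjusted p = 0.032) but not with a constant prior (adjusted p = 0.16). With the former prior the adjusted p was 0.13 without vehicle replicate 1 and 0.28 without vehicle replicate 2. Ddit4, a stress-induced inhibitor of mTOR signalling, differed by 0.70 ± 0.20. Of 3 other textbook targets, picked after their values were seen, Vegfa, of vessel growth, was narrowly higher in both MC903 arrays with a difference of 0.21 ± 0.18. The groups overlapped for Bnip3, of mitophagy, with a difference of 0.04 ± 0.18, and for Car9, a carbonic anhydrase gene, with one of -0.04 ± 0.24. Ndrg1 of the same list, also picked after its values were seen, was lower in both MC903 arrays. It stood at 2966 and 3123 (vehicle) against 2779 and 2527 (MC903), a difference of -0.20 ± 0.16.

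Past pyruvate, the genes of pyruvate oxidation and the citrate cycle had a median of -0.01 over 22 measured genes, 3 higher, 5 lower and 14 overlapping. Over all genes 21.6% were higher and 28.2% lower. With either prior limma called 0 of the 22. Without adjustment 0 higher and 2 lower had a p below 0.05, against 6.82% and 8.39% of all genes. Of the genes whose groups did not overlap, those with the largest differences were mostly regulators of the pyruvate dehydrogenase complex. Pdk1, a kinase gene that switches the complex off, stood at 1188 and 1345 on the vehicle arrays, with 724 and 880 on the MC903 arrays (-0.65 ± 0.19; limma, adjusted p = 0.27). Pdp1, the gene of the phosphatase that switches it on, stood at 846 and 812 with vehicle, against 480 and 596 with MC903 (-0.62 ± 0.18; limma, adjusted p = 0.27). Pdk2, another such kinase gene, differed by -0.62 ± 0.29 and Pcx, of pyruvate carboxylase, by 0.34 ± 0.22. The groups overlapped for the other kinase genes, Pdk3 and Pdk4, named after their values were seen, with differences of -0.01 ± 0.17 and -0.42 ± 0.31.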

How the data were processed

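Intensity values of 45101 probe sets on 4 arrays, as deposited by the authors, were used on their linear scale. What software made them is not stated in the labels or headers. Trimmed of 2% of probe sets at either end, every array averages 500.0. Probe sets were named from the platform annotation, and symbols were updated through Entrez IDs to the RefSeq table of GRCm38.p6. With 64 array controls left out, 34945 had 1 symbol (34741 matched by ID), 932 several and 9160 none. Each gene took the probe set with 1 symbol and the highest mean log2(signal + 16), and Gapdh took its brightest shared one. No filter or further scaling was applied.

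MC903 was set against vehicle with the lmFit and eBayes functions of limma 3.58.1, run under R 4.3.3 (2 residual and 2.32 prior degrees of freedom, Benjamini-Hochberg over 18194 genes, threshold 0.05), also with a prior that follows the signal. Every difference is one of log2(signal + 16), and the added constant shrinks those of dim genes. The number of arrays limits precision. The fit was tested on simulated data.

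The genes, lists and tests were chosen with earlier results of these data known. Besides the 8 genes, each list names up to 4 genes with the largest absolute differences among those whose groups did not overlap and whose mean signal exceeded 100, or the 2 largest where fewer than 2 qualified, and the 3 genes nearest the mean pattern. Motifs were searched on both strands of the 250 bases before RefSeq starts. Alternatives varied the scaling, the added constant, filters, probe sets, the prior, the replicate block and the arrays used.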

Additional observations from a re-analysis of the deposited data

How the results depend on the processing

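Under 14 alternative settings the 8 genes gave 112 single differences, of which 111 kept their direction and side of the threshold. The exception was Aldoa, whose difference was -0.052 after quantile normalization. The number of the 8 called stayed at 0 under all of them, with adjusted p from 0.095 to 0.96. Their count with groups apart was 6 after quantile normalization and with probe sets averaged, and 8 with arrays centred. It was 7 or 8 otherwise. The constants, the filters and the replicate block could not change this count, which was taken on the same signals. Leaving out an array could only keep or raise it. The median difference of the 8 genes was 0.36 after quantile normalization, 0.59 with arrays centred on their medians, and 0.30 to 0.62 with 1 array left out. The prior, the filters and the replicate block leave every difference as it is by construction, so its direction could not change under them. The replicate block (median 0.50, 0 genes called) changed no call. The labels do not say whether equal replicate numbers pair the samples. The correlation of same-numbered deviations was -0.061, which with so few arrays cannot settle it.

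The count of all genes called was less stable. From 0 it went to 168 with the prior that follows the signal, 3 with arrays centred, 70 with a constant of 64, 36 and 190 without the dimmest 25% and 50% of genes, 12 with probe sets averaged, and 5 when each gene took the probe set with the highest mean linear signal, a setting added after seeing the data, as was leaving out arrays for Egln3 and Slc16a1. The cause was not tested. Where 1 array was dropped, its group's remaining array took its spread from the other group.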

Other observations

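Side branches of glucose metabolism were measured on the same arrays. Over all genes 21.6% were higher in both MC903 arrays and 28.2% lower, and 6.82% and 8.39% were so with an unadjusted p below 0.05. Of the pentose phosphate pathway, which yields NADPH, 2 of 6 measured genes were higher in both MC903 arrays, 1 lower and 3 overlapping, with a median difference of 0.06. limma called 0, and 1 higher and 0 lower had an unadjusted p below 0.05. Pgd, the gene of phosphogluconate dehydrogenase, stood at 2694 and 3004 (vehicle) against 4429 and 3987 (MC903), a difference of 0.56 ± 0.17 (limma, adjusted p = 0.27). Rpia, of ribose phosphate isomerase, differed by -0.29 ± 0.17 and Taldo1, of transaldolase, by 0.10 ± 0.15. Glycogen genes had a median of -0.20 over 10, with 3 higher, 3 lower and 4 overlapping. limma called 0, and 1 higher and 1 lower had an unadjusted p below 0.05. The higher one, Gys2, the liver glycogen synthase gene, is named after its values were seen, and its signals on all 4 arrays (1.16 to 20.9) were under the brightest of the TrpnX background controls. Gbe1, the branching enzyme gene, stood at 477 and 355 on the vehicle arrays, with 246 and 258 on the MC903 arrays (-0.68 ± 0.21), the brain phosphorylase gene Pygb differed by -0.39 ± 0.16, and the phosphoglucomutase genes Pgm2 and Pgm1 by -0.38 ± 0.19 and 0.20 ± 0.18.

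Gluconeogenesis, the reverse route, had 2 of 6 genes higher, 1 lower and 3 overlapping, against 21.6% of all genes higher and 28.2% lower. limma called 0 of the 6. At an unadjusted p below 0.05, 0 were higher and 1 lower, against 6.82% and 8.39% of all genes. Fbp1, of fructose bisphosphatase, stood at 323 and 1089 with vehicle, against 135 and 147 with MC903 (-1.96 ± 0.60; limma, adjusted p = 0.28), the vehicle arrays being far apart in the order of the summed hair follicle markers (5711 and 12005). Pck1, the cytosolic phosphoenolpyruvate carboxykinase gene, which adipocytes are known to express, stood at 85.5 and 35.5 (vehicle) against 106 and 286 (MC903), a difference of 1.41 ± 0.58 (limma, adjusted p = 0.36), and MC903 replicate 2 was the highest array for the adipocyte markers too (24344). The part of these cells was not tested. Pck2, the mitochondrial form, differed by 0.28 ± 0.21.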
